A study of Mus musculus with 6 samples.

Results

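Immediate early genes are the genes that a cell transcribes within minutes of a stimulus, without first making new protein. The 10 described here were Fos, Fosb, Junb, Jund, Egr1, Egr3, Nr4a1, Atf3, Ier2 and Dusp1, chosen by gene symbol, and all 10 were found among the 17666 genes of the table. They were measured by RNA sequencing of auditory nerve from young adult C57 mice aged 1.5 to 2.5 months. The question was how the nerve differs between mice labelled as Cfb knockouts and wildtype mice, Cfb being the gene that encodes complement factor B. There were 3 samples from Cfb knockout mice and 3 from wildtype mice, and each sample was the nerve tissue dissected from the 2 cochleas of 1 mouse. The values are normalized counts, that is, gene counts that the authors scaled per sample and rounded.

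The products of these genes are mostly transcription factors. FOS and JUN proteins pair to form AP-1, EGR proteins bind GC-rich promoter sites through zinc fingers, NR4A1 is an orphan nuclear receptor, and ATF3 is induced by stress and by nerve injury. IER2 is a small nuclear protein, and DUSP1 is a phosphatase that switches off MAP kinases. Calcium and growth factor signals reach these genes through kinases that act on serum response factor with its partners and on CREB. In nerve tissue both neurons and Schwann cells can express them.

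The targeted gene went against the labels, so all directions are between libraries as labelled. Cfb (chromosome 17, 34856374 to 34862514) had 336, 351 and 376 normalized counts in the knockout-labelled libraries, against 55, 39 and 116 in the wildtype-labelled ones, and a count per gene cannot show whether the reads lie in the disrupted part. Normalized counts summed to between 38675077 and 41496282 per library; these totals are set by the scaling, so the depth in reads is unknown. All 9 neuronal and all 8 Schwann cell and myelin markers looked at were present, with none at 0 in any library, and the summed levels of each list overlapped between the labels. Red cell markers (9 of 9 measured, none at 0) summed to 2727 to 4001 in the knockout-labelled libraries and to 10828 to 34669 in the wildtype-labelled ones. Neutrophil and marrow markers (8 of 8 measured, with Elane at 0 in at least 1 library) summed to 24 to 695 in the knockout-labelled libraries and to 756 to 2308 in the wildtype-labelled ones. Endothelial markers (6 of 6, none at 0) summed to 11025 to 12886 in the knockout-labelled libraries and to 8247 to 8735 in the wildtype-labelled ones. Skeletal muscle markers (6 of 6, with Myh1 at 0 in at least 1 library) summed to 1840 to 2157 in the knockout-labelled libraries and to 917 to 1349 in the wildtype-labelled ones. Of this sum 85.6% came from Ttn alone, and the other 5 markers had log2 fold changes below 0 (median over the 6, -1.04). Organ of Corti markers (8 of 8, none at 0) summed to 11055 to 25762 in the knockout-labelled libraries and to 3882 to 13794 in the others. Of this sum 49.7% came from Otog. All 8 had log2 fold changes above 0 (median 1.45), with 1 of the 8 not overlapping between the labels. The part of these cell types in the levels below was not tested. In bulk tissue, fewer cells of a type and less RNA per cell cannot be told apart.

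The promoter sequences of 3 members are shown because cAMP response elements, the sites bound by CREB, mark many genes of this class. These 3 carried the most matches. The values of Fos did not overlap between the labels, while those of Nr4a1 and Dusp1 did. RefSeq windows of GRCm38.p6 (the build also called mm10) were matched for 7 of the 10 members. Each line below gives the 250 bases before the annotated start, 5′ to 3′ on the strand of the gene. Capitals mark the core of the cAMP response element, TGACG on either strand, the full element TGACGTCA and the TATA box TATAAA. The windows are chr12:85473640-85473889 on the plus strand for Fos, chr15:101266596-101266845 on the plus strand for Nr4a1 and chr17:26508473-26508722 on the minus strand for Dusp1. The Nr4a1 window precedes a transcript start that lies inside the annotated gene (101253902 to 101274795), not the first base of the gene.

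Fos promoter: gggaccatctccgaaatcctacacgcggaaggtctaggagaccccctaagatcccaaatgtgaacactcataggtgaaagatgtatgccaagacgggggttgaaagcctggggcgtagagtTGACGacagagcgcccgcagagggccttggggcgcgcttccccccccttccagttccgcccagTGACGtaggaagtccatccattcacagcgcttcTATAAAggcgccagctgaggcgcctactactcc
Nr4a1 promoter: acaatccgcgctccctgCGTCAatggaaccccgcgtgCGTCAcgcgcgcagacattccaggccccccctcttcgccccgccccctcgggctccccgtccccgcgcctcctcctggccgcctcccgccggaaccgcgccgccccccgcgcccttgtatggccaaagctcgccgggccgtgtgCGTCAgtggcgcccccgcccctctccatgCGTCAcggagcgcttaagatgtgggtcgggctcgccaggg
Dusp1 promoter: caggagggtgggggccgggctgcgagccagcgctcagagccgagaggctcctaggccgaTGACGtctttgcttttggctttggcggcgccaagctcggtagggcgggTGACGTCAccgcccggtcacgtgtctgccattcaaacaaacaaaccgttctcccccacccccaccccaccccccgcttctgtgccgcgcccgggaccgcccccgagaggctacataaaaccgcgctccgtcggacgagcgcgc

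Fos had the core TGACG at -129 and at -66 and a TATA box at -33, counted in bases from the start. Nr4a1 had 4 copies of the core, all on the opposite strand. Dusp1 had the full element at -143, which holds a core on each strand, and a further core at -191. The core was present in 6 of the 7 matched members (all but Jund), against 17.8% of all 32851 windows of this length. The full element was in Dusp1 and in 1.55% of all windows, and TATAAA was in Fos and in 12.4%. A match describes letters in the window and not a site in use.

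Egr1 and Fos had the largest ratios between the labels, and Egr3, like them, was higher in every library labelled knockout than in any library labelled wildtype. By limma across all genes, none of the 10 members passed an adjusted p of 0.05, where 0.158% of all genes did. With an unadjusted p below 0.05 by limma there were 3 members higher and 0 lower, against 10.8% and 9.2% of all genes. In the authors' deposited table, 2 members, Egr1 and Fos, had a false discovery rate under 0.05, both higher in the knockout-labelled libraries, as did 4.14% of the genes with a rate. The labels did not overlap for 3 of the 10 members, all higher, and 13.6% of all genes were higher without overlap. The remaining 7 members overlapped between the labels. The median log2 fold change was 0.15 over the 10 members and 0.01 over all genes. The median of the members moved to 0.02 without wildtype replicate 1 and 0.09 without knockout replicate 1, and to 0.26 without wildtype replicate 3 and 0.30 without knockout replicate 2.

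**Figure D1:**
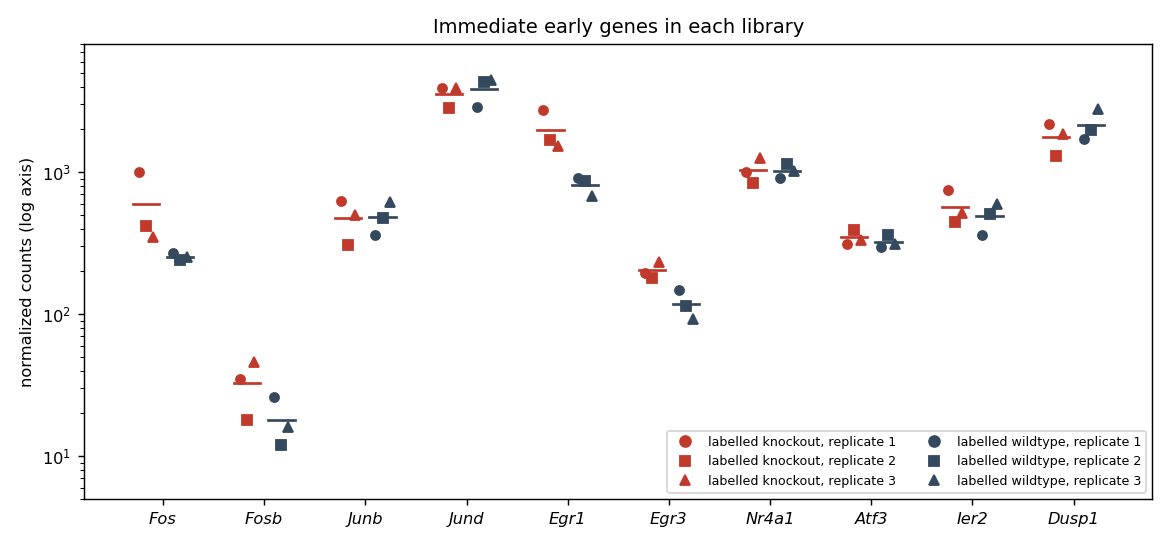
Normalized counts (log axis) of the 10 members in each library, with libraries labelled knockout in red on the left of each pair and libraries labelled wildtype in dark blue on the right; horizontal bars are means of 3 libraries. Fos, Egr1 and Egr3 do not overlap between the labels, and Fos in knockout replicate 1, at 1008, lies well above the other libraries.

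Egr1 (chromosome 18, 34861207 to 34864956) encodes a zinc finger factor that is widely used as a marker of recent neuronal activity. It had 2734, 1688 and 1523 normalized counts in the knockout-labelled libraries, against 909, 866 and 678 in the wildtype-labelled ones. Every library labelled knockout was above every library labelled wildtype, and knockout replicate 1 was the highest. The mean was 1981.7 ± 656.7 in the knockout-labelled libraries and 817.7 ± 122.9 in the wildtype-labelled ones (SD, n = 3 each), a ratio of 2.42. The log2 fold change was 1.24 (SE 0.24, adjusted p = 0.146 by limma), which placed Egr1 at 144 of 17666 genes by p. The authors' deposited table gives Egr1 a fold change of 2.42 and a false discovery rate of 0.000333. A two-sided exact permutation test gave p = 0.1, the smallest that 3 libraries against 3 allow.

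Egr3 (chromosome 14, 70077317 to 70082613), a related zinc finger factor known for its role in muscle spindles, had 195, 181 and 235 normalized counts in the knockout-labelled libraries, against 149, 114 and 92 in the wildtype-labelled ones. Knockout replicate 3 was the highest library for this gene, and the labels again did not overlap. The mean was 203.7 ± 28.0 in the knockout-labelled libraries and 118.3 ± 28.7 in the wildtype-labelled ones (SD, n = 3 each), a ratio of 1.72, and the log2 fold change was 0.80 (SE 0.24, adjusted p = 0.175 by limma). In the authors' deposited table its false discovery rate was 0.0521, just above 0.05.

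Egr2 is the EGR family member that Schwann cells need in order to myelinate, and is not itself one of the 10. It was lower in the knockout-labelled libraries without overlap, as were 14.9% of all genes. Its values were 2302, 2636 and 2378 normalized counts, against 2927, 2750 and 2747 in the wildtype-labelled ones (log2 fold change -0.21, adjusted p = 0.301 by limma). The 8 Schwann cell and myelin markers, of which Egr2 is 1, had a median log2 fold change of -0.21, with 6 below 0 and 2 above. Within each library the ratio of Egr1 to Egr2 counts, which does not depend on the scaling of the library, was 1.19, 0.64 and 0.64 in the knockout-labelled libraries and 0.311, 0.315 and 0.247 in the wildtype-labelled ones. The ratio was thus higher in each library labelled knockout, and highest in replicate 1.

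Fos (chromosome 12, 85473890 to 85477274), the partner of JUN proteins in AP-1, had 1008, 421 and 351 normalized counts in the knockout-labelled libraries, against 271, 240 and 251 in the wildtype-labelled ones. The labels did not overlap, but 1 library carried much of the difference: no library other than knockout replicate 1 exceeded 421. The mean was 593.3 ± 360.8 in the knockout-labelled libraries and 254.0 ± 15.7 in the wildtype-labelled ones (SD, n = 3 each), a ratio of 2.34. The coefficient of variation was 60.8% in the knockout-labelled libraries and 6.19% in the wildtype-labelled ones. The log2 fold change was 1.06 (SE 0.38, adjusted p = 0.203 by limma), and 0.60 without knockout replicate 1. The authors' deposited table gives Fos a fold change of 2.34 and a false discovery rate of 0.0402.

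Fosb (chromosome 7, 19302696 to 19310118), which encodes a FOS protein with a long-lived splice form, was the least abundant member. It had 35, 18 and 46 normalized counts in the knockout-labelled libraries, against 26, 12 and 16 in the wildtype-labelled ones. The labels overlapped, since knockout replicate 2 lay below wildtype replicate 1. Its log2 fold change was 0.81 (SE 0.47, adjusted p = 0.368 by limma), 0.53 without knockout replicate 3 and 1.18 without knockout replicate 2.

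The JUN genes differed by less than the spread between libraries. Junb (chromosome 8, 84976909 to 84978748) had 631, 309 and 497 normalized counts in the knockout-labelled libraries, against 359, 477 and 617 in the wildtype-labelled ones. Its log2 fold change was -0.04 with a 95% interval by limma of -0.77 to 0.68, wide enough to hold a change of either sign. Jund (chromosome 8, 70697739 to 70700616), which many cells express without a stimulus, had 3918, 2843 and 3891 normalized counts in the knockout-labelled libraries, against 2869, 4292 and 4478 in the wildtype-labelled ones. Its log2 fold change was -0.12 (95% interval -0.61 to 0.38). Both genes were lowest in knockout replicate 2 and wildtype replicate 1 of their labels.

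Nr4a1 (chromosome 15, 101253902 to 101274795) is often induced together with Egr1 and Fos, but here it had 996, 846 and 1263 normalized counts in the knockout-labelled libraries, against 910, 1151 and 1016 in the wildtype-labelled ones. The means of 1035.0 ± 211.2 in the knockout-labelled libraries and 1025.7 ± 120.8 in the wildtype-labelled ones (SD, n = 3 each) lay within the spread, and the 95% interval of the log2 fold change by limma was -0.42 to 0.42. Atf3 (chromosome 1, 191170296 to 191183333), a marker of injured neurons, had 313, 393 and 335 normalized counts in the knockout-labelled libraries, against 297, 361 and 314 in the wildtype-labelled ones. It was the steadiest member, with an SD within labels of 0.157 on the log2 scale and a 95% interval of the log2 fold change of -0.29 to 0.48.

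Ier2 (chromosome 8, 84661331 to 84662852) had 745, 444 and 512 normalized counts in the knockout-labelled libraries, against 363, 504 and 601 in the wildtype-labelled ones, with a log2 fold change of 0.21 (95% interval by limma -0.40 to 0.82). Dusp1 (chromosome 17, 26505591 to 26508472) had 2170, 1302 and 1857 normalized counts in the knockout-labelled libraries, against 1709, 1987 and 2778 in the wildtype-labelled ones. Its log2 fold change of -0.28 was the lowest of the 10 (95% interval -0.86 to 0.29), but it was -0.07 without knockout replicate 2 and -0.08 without wildtype replicate 3, and -0.44 without knockout replicate 1 and -0.43 without wildtype replicate 1. Neither gene separated the labels, and the highest Ier2 value came from knockout replicate 1 while the highest Dusp1 value came from wildtype replicate 3.

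**Figure D2:**
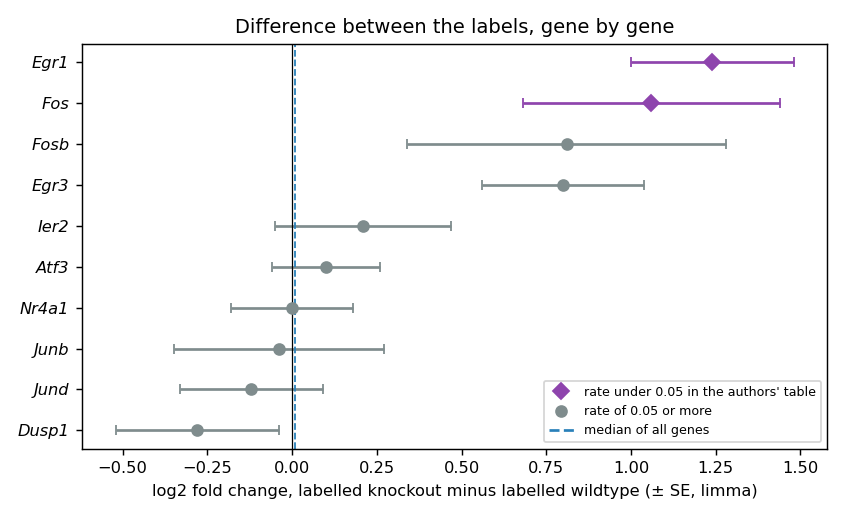
Log2 fold change of each member, labelled knockout minus labelled wildtype, with its standard error from limma; purple diamonds mark a false discovery rate under 0.05 in the authors' deposited table and the dashed line is the median of all genes, 0.01. Egr1 at 1.24 and Fos at 1.06 stand farthest to the right, and Dusp1 at -0.28 farthest to the left.

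The values of Egr1, Fos and Egr3 were about as large after each correction for a property of the transcripts. Genes in the tenth with the longest transcripts had median log2 deviations of 0.18 to 0.22 in the knockout-labelled libraries and -0.43 to -0.02 in the wildtype-labelled ones. After a correction for transcript length the log2 fold changes were 1.12 for Egr1, 1.13 for Fos and 0.72 for Egr3. The tenth with the highest GC content had median deviations of -0.00 to 0.11 in the knockout-labelled libraries and -0.13 to -0.02 in the wildtype-labelled ones, and after a correction for GC content the 3 values were 1.13, 1.00 and 0.73.

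Within each label the members did not vary as 1 block. Junb, Jund, Ier2 and Dusp1 shared an order of libraries: each was highest in knockout replicate 1 and lowest in knockout replicate 2 among the knockout-labelled libraries, and highest in wildtype replicate 3 and lowest in wildtype replicate 1 among the others. Of all genes, 6.27% had these same 4 extremes, and 4 of the 10 members did. Nr4a1 shared the lowest libraries, knockout replicate 2 and wildtype replicate 1, which 5 members and 15.7% of all genes had. Both patterns were read from the members' own values, so these shares are a description and not a test. Fos and Egr1 had a different order, with knockout replicate 1 highest and knockout replicate 3 lowest, and wildtype replicate 1 highest among the wildtype-labelled ones. The SD within labels on the log2 scale had a median of 0.362 over the members and 0.252 over all genes, and 8 of the 10 members were above the median of all genes.

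**Figure D3:**
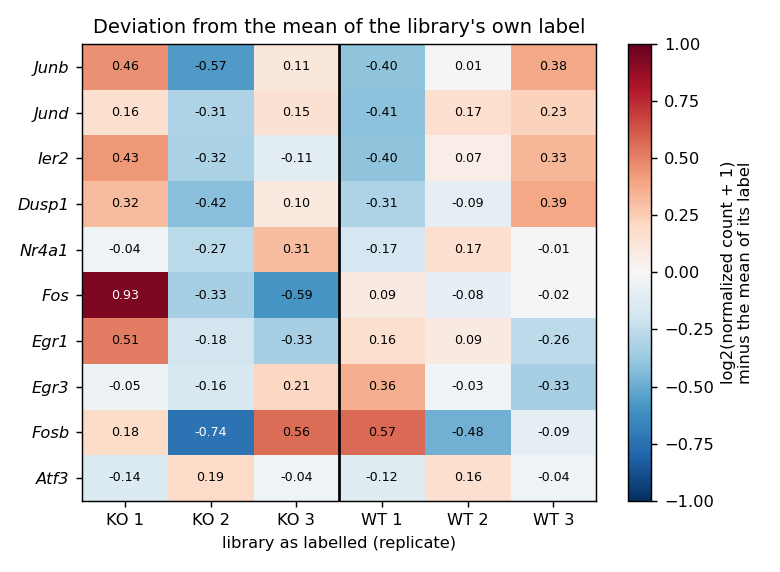
Log2(normalized count + 1) of each member minus the mean of the 3 libraries with the same label (KO, labelled knockout; WT, labelled wildtype), with red above and blue below that mean. Junb, Jund, Ier2 and Dusp1 are blue in KO 2 and WT 1, while Fos and Egr1 are red in KO 1, at 0.93 and 0.51.

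Levels of different genes were compared per kilobase of the longest annotated transcript. Overlap between genes here means that their ranges over the 3 libraries of a label overlap, not that they cross within a library. Jund was the most abundant in both labels, with 2128.7 ± 367.5 normalized counts per kb in the knockout-labelled libraries and 2325.9 ± 527.7 in the wildtype-labelled ones (SD, n = 3 each), and did not overlap with Dusp1, which came next. Egr1 held the third place in the knockout-labelled libraries, with 441.9 ± 146.5 per kb, and the sixth in the wildtype-labelled ones, with 182.4 ± 27.4. In the knockout-labelled libraries each member from Dusp1 down to Atf3 (Dusp1, Egr1, Nr4a1, Ier2, Fos, Junb and Atf3) overlapped with its neighbour in the order. In those labelled wildtype, Nr4a1, Ier2, Junb, Egr1 and Atf3 formed such a run, and Fos lay below it with 113.9 to 128.6 per kb. Egr3 and Fosb were the lowest in both labels without overlap with their neighbours, and Fosb had 8.7 ± 3.7 per kb in the knockout-labelled libraries and 4.8 ± 1.9 in the wildtype-labelled ones.

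The makeup of each family showed where a member stood among its relatives. Egr1 made up 42.5%, 28.7% and 28.3% of the summed per-kb level of Egr1, Egr2 and Egr3 in the knockout-labelled libraries, against 16.5%, 16.8% and 13.7% in the wildtype-labelled ones, with no overlap. The summed level of the EGR family was 1316.1 ± 117.2 per kb in the knockout-labelled libraries and 1159.4 ± 63.9 in the wildtype-labelled ones (SD, n = 3 each). Fos made up 84.6%, 75.0% and 63.7% of Fos, Fosb and Fosl2 in the knockout-labelled libraries, against 64.4%, 69.2% and 40.4% in the wildtype-labelled ones, which overlap. Wildtype replicate 3 had the lowest Fos share, and there Fosl2 held 58.2%. Jund was the main JUN transcript in every library, at 57.7% to 63.6% in the knockout-labelled ones and 57.1% to 71.6% in the wildtype-labelled ones. Nr4a1 was likewise the main NR4A transcript, at 72.8 ± 1.4% in the knockout-labelled libraries and 72.5 ± 8.3% in the wildtype-labelled ones (SD, n = 3 each).

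**Figure D4:**
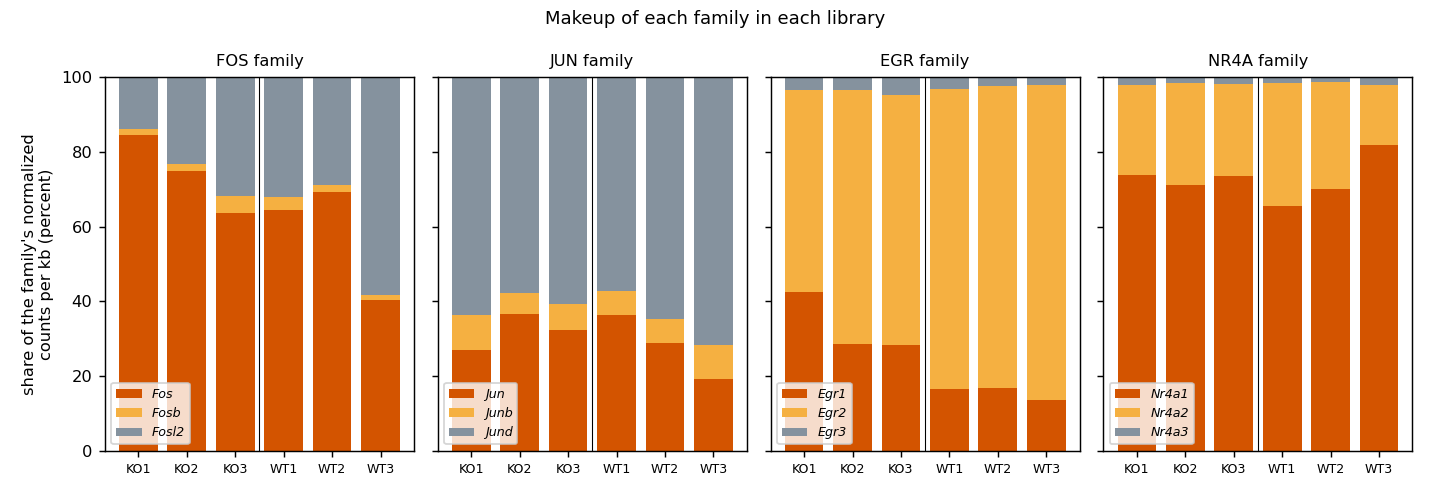
Share of each gene in the summed normalized counts per kb of its family, in percent, for each library as labelled (KO, knockout; WT, wildtype), in stacked bars that add to 100. The Egr1 share is 28.3% to 42.5% in the knockout-labelled libraries and 13.7% to 16.8% in the wildtype-labelled ones.

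Other early-response genes, and the signalling genes upstream of them, were taken from a list of 111 genes in 8 role groups, of which 109 were in the table. By limma none of the 109 passed an adjusted p of 0.05, while 7 were higher and 8 lower with an unadjusted p below 0.05, fewer than the 10.8% and 9.2% of all genes would give. The authors' deposited table called 1 of the 109, against 4.14% of all genes with a rate that it called higher. This was the CREB coactivator gene Crtc3, singled out after its values were seen. Crtc3 had 1594, 1705 and 1748 normalized counts in the knockout-labelled libraries, against 1403, 1143 and 1101 in the wildtype-labelled ones, with a fold change of 1.38 and a false discovery rate of 0.0364 in the authors' deposited table. Its log2 fold change by limma was 0.48, and 0.31 after the correction for transcript length.

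The upstream transcription factors had a median log2 fold change of 0.31, with 14 of 16 genes above 0 and 8 of 16 higher without overlap, against 13.6% of all genes, although none passed by limma. With the correction for transcript length their median was 0.06, with 10 of 16 above 0. By mean normalized count, the highest of them were Mef2a, an activity-regulated MADS-box factor, and Ep300, a histone acetyltransferase and coactivator. Per kb, Ep300 (mean 546.8) lay below Crtc2 (758.2) and Mef2d (707.2). Mef2a had a log2 fold change of 0.26, and 0.06 with the length correction. Ep300 had 0.48, but -0.0018 with the length correction and 0.16 without wildtype replicate 2. The 20 upstream kinases had a median of 0.03, which the length correction turned to -0.11, with 5 above 0 and 15 below. Without wildtype replicate 3 it was -0.02, and without wildtype replicate 1 it was 0.10. By mean normalized count, not divided by transcript length, their highest genes were Mapk10, a neuronal JNK, and Rps6ka3, a kinase that acts on CREB. Per kb, Mapk3 (mean 5030.3) and Prkaca (3189.8) lay above Mapk10 (1936.3) and Rps6ka3 (1497.1). The log2 fold changes of Mapk10 and Rps6ka3, 0.18 and 0.04, were -0.15 and -0.30 with the length correction. None of these values passed by limma.

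The 6 other groups of early-response genes had medians of -0.36 to -0.09, beside 0.15 for the members. Without wildtype replicate 3 the AP-1 and ATF group and the neuronal and matricellular group were each at 0.02, without knockout replicate 2 these groups were at -0.05 and -0.03 and the other early transcription factors and regulators at -0.02, and without wildtype replicate 1 the members were at 0.02. In the group of RNA decay and growth arrest genes, 5 of 10 were lower in the knockout-labelled libraries without overlap, against 14.9% of all genes. Among them Cdkn1a, a cell cycle inhibitor, had 3117, 3052 and 3024 normalized counts in the knockout-labelled libraries, against 3483, 4097 and 10132 in the wildtype-labelled ones, so wildtype replicate 3 set most of the difference. Mcl1, an inhibitor of cell death, had 4197, 3840 and 4243 in the knockout-labelled libraries, against 4589, 5421 and 5971 in the wildtype-labelled ones. Without wildtype replicate 3 the median of this group was -0.13.

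Wildtype replicate 3 was the highest of the 6 libraries for 38 of the 109 genes, or 34.9%, against 27.6% of all genes. The share differed between role groups, from 15% of the upstream kinases to 60% of the RNA decay and growth arrest genes, and 2 of the 10 members, Jund and Dusp1, were highest there. Sgk1, a kinase gene that responds to glucocorticoids, had 4918, 4897 and 5624 normalized counts in the knockout-labelled libraries, against 6535, 7655 and 28719 in the wildtype-labelled ones. Errfi1, an inhibitor of the EGF receptor, had 3355, 2739 and 2992 in the knockout-labelled libraries, against 3787, 4343 and 9467 in the wildtype-labelled ones. Per1, a clock gene, had 2950, 3410 and 3253 in the knockout-labelled libraries, against 3902, 2818 and 8980 in the wildtype-labelled ones. Klf9, a Krüppel-like factor, had 4694, 4404 and 4709 in the knockout-labelled libraries, against 5063, 3957 and 9636 in the wildtype-labelled ones. All 4 genes were highest in wildtype replicate 3, and none passed by limma. Without it the log2 fold change of Sgk1 was -0.46 in place of -1.14, and that of Per1 was -0.05 in place of -0.53. Egr1 and Egr3 were lowest of all libraries there, with 678 and 92, and without it their log2 fold changes were 1.11 and 0.63.

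The feedback phosphatases and signal inhibitors had a median log2 fold change of -0.22, with 12 of 15 genes below 0. Of the 15, 2 were lower without overlap, against 14.9% of all genes, and 1, Socs3, was higher, against 13.6%. Dusp2, a nuclear phosphatase of MAP kinases singled out after its values were seen, had the lowest value of the 109 genes, -1.27 (adjusted p = 0.186 by limma), from 5, 9 and 5 normalized counts in the knockout-labelled libraries, against 14, 15 and 20 in the wildtype-labelled ones. Without wildtype replicate 1 the median of this group was -0.11. Jun, the JUN gene not among the 10, had 3183, 3438 and 3947 normalized counts in the knockout-labelled libraries, against 3484, 3653 and 2310 in the wildtype-labelled ones, which overlap. Atf4, a factor of the integrated stress response, had a log2 fold change of -0.04, and Bhlhe40, a basic helix-loop-helix repressor, of -0.03. Spred1, an inhibitor of the Ras pathway, had 0.00, and Rhob, a small GTPase, -0.17. None of these genes passed by limma.

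**Figure D5:**
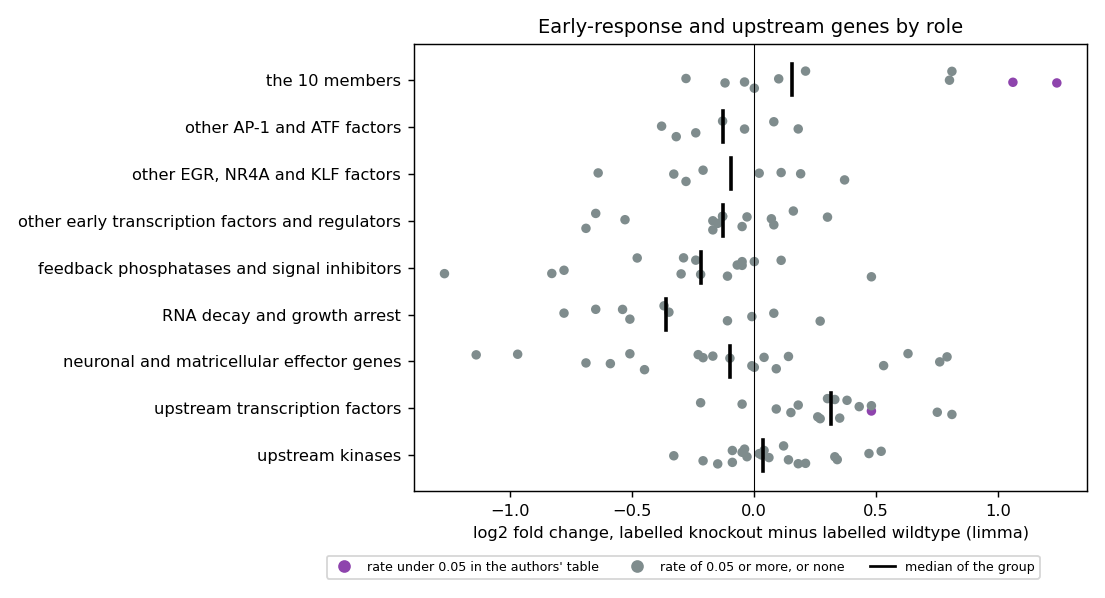
Log2 fold change by limma, labelled knockout minus labelled wildtype, of the 10 members and of the 109 other early-response and upstream genes by role; each point is a gene, vertical bars are medians and purple marks a false discovery rate under 0.05 in the authors' deposited table. The upstream transcription factors have a median of 0.31, and the RNA decay and growth arrest genes have the lowest, -0.36.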

How the data were processed

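Libraries were made from total RNA with the TruSeq RNA kit, per the labels' protocols; the submitters' processing notes list TopHat2, Partek, DESeq2 and build mm10, with no roles. Strand use and annotation are not given in the sources used here. In the deposited table there is 1 score per gene and sample, which from its values is a gene count that the authors scaled per sample and rounded (normalized count), and the authors' fold change and false discovery rate, per the file headers; the rate is missing for 2061 genes. Because the scaled values were rounded, raw reads were not recovered and no count test was run. Values were taken as log2(value + 1), and a filter on a mean of 1 removed no gene. Limma 3.58.1 in R 4.3.3 compared the labels with no other term, using moderated variances with a mean trend and Benjamini-Hochberg adjustment over all 17666 genes. Fold changes on this scale understate those of low genes. The procedure was tested on simulated data. Lengths and GC contents came from the longest GENCODE M21 transcript, matched for 98.9% of genes. The members and lists were chosen with earlier results of these data known. All members and the 6 genes most like the members in profile are named. In each role group with none past the threshold, the 2 genes with the highest mean normalized count, not divided by transcript length, are also named. Alternatives were other pseudocounts, filters, scalings, variance models, length or GC corrections, the replicate number as a block and leaving out each library. The alternative without a filter is the same fit as the main one, because the filter removed no gene.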

Additional observations from a re-analysis of the deposited data

How the results depend on the processing

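None of the 10 members passed an adjusted p of 0.05 by limma under any of the 18 alternatives, while 3 had an unadjusted p below 0.05 and 2 were called in the authors' deposited table. In the main fit Cfb did not pass by limma either (log2 fold change 2.47, adjusted p = 0.107), while its rate in the authors' deposited table was 1.8e-06. A gene that does not pass is thus not shown to be equal between the labels. The adjusted p of Egr1 ranged from 0.0596 to 0.48, that of Egr3 from 0.0806 to 0.485 and that of Fos from 0.153 to 0.485, and their log2 fold changes kept their sign, at 0.98 to 1.40, 0.63 to 0.98 and 0.60 to 1.36. The number of genes called was 28, and 16 without the trend, 111 with sample weights and 0 to 419 when 1 library was left out (0 without any one of the 3 labelled knockout, 87, 1 and 419 without wildtype replicate 1, 2 and 3); the cause was not tested. Of the wider list 0 to 1 genes were then called, the kinase gene Rps6ka1 (0.57, adjusted p = 0.0455) without wildtype replicate 3. With the replicate number as a block, 7 genes and no member were called. Libraries with the same number correlated at -0.034, 0.0859 and 0.201, not each best with its own number. This shows no pairing by number, but 3 libraries per label are too few to exclude one.

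The median of the members was 0.02 to 0.30 when 1 library was left out, 0.25 with the length correction, 0.21 with sample weights and 0.05 with the GC correction. Values near 0 changed sign. When 1 library was left out, Nr4a1 lay between -0.15 (without knockout replicate 3) and 0.14 (without knockout replicate 2), Junb between -0.27 (without knockout replicate 1) and 0.24 (without knockout replicate 2), Jund between -0.32 (without wildtype replicate 1) and 0.04 (without knockout replicate 2) and Ier2 between -0.0069 (without knockout replicate 1) and 0.37 (without knockout replicate 2). Without changing sign, Dusp1 lay between -0.44 and -0.07 and Atf3 between 0.0041 and 0.18. Of the other named genes, for which every alternative was added after seeing the data, Atf4 lay between -0.09 and 0.05, Jun between -0.02 and 0.31, Klf9 between -0.60 and 0.04, Bhlhe40 between -0.06 and 0.02, Spred1 between -0.11 and 0.07, Rhob between -0.26 and 0.0024 and Rps6ka3 between -0.04 and 0.18. With quantile normalization Nr4a1 was -0.01 and Spred1 -0.02. With sample weights Nr4a1 was -0.0028, Junb 0.07, Atf4 0.02, Spred1 -0.07 and Rps6ka3 -0.02. With the length correction Junb was 0.05, Atf4 0.03, Spred1 -0.24, Ep300 -0.0018, Mapk10 -0.15, Rps6ka3 -0.30 and Polk -0.0033, and with the GC correction, chosen after seeing the data, Nr4a1 was -0.11. Depth in reads is unknown, so no counting interval was given.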

Other observations

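The 6 genes whose profile over the 6 libraries was most like the mean standardised profile of the 10 members, among genes with a mean of at least 100 normalized counts outside both lists, were Polk, Scara3, Dse, Fzd7, Slc25a24 and Zfp53, with Pearson's r of 0.957 to 0.991 given as a description of these libraries, which share their scaling and labels. Polk encodes a DNA polymerase of lesion bypass, Scara3 a scavenger receptor, Dse an epimerase of dermatan sulfate synthesis, Fzd7 a WNT receptor and Slc25a24 a mitochondrial carrier. Scara3 had 11358, 7444 and 9874 normalized counts in the knockout-labelled libraries, against 6110, 8302 and 8249 in the wildtype-labelled ones. All 6 genes were highest in knockout replicate 1 and lowest in knockout replicate 2 and wildtype replicate 1 of their labels. The mean profile by which they were chosen has this same order, so it follows from the choice. None of the 6 passed by limma, with log2 fold changes of 0.09 to 0.33. Likeness was computed to the mean of the members only, and likeness to Egr1 or Fos alone was not tested.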
